A study of Mus musculus with 3 samples.

Results

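The transforming growth factor beta (TGF-beta) pathway was followed through 10 of its genes in heart sections of C57BL/6 mice profiled by Visium spatial transcriptomics. They were taken by symbol, and each matched 1 of the 32285 genes in the deposited matrices: the ligand genes Tgfb1, Tgfb2, Tgfb3 and Inhba, the latent binding proteins Ltbp1 and Ltbp2, the receptors Tgfbr1 and Tgfbr2, and the inhibitors Smad7 and Skil. In Visium, tissue is laid over a grid of barcoded spots, each of which captures the transcripts of a small region and so of several cells, not of 1 cell. The sham mouse received vehicle by gavage for 7 days and was operated on with the needle only, without ligation. The I/R mouse received vehicle for 7 days, then ligation of the left anterior descending coronary artery (LAD) for 30 min and reperfusion for 24 h. The SBP mouse received MUSKARDIA (Shexiang Baoxin Pill, SBP, a traditional Chinese medicine) for 7 days before the same ischemia and reperfusion. The labels give no age, and they do not say how much of each section is infarct. The paper read the infarct from the gene Ankrd1 and reports a smaller infarct share in SBP than in I/R. The sections may thus hold unlike amounts of injured tissue, and the part of this in the differences below was not tested. With 1 section per condition no test between conditions was possible, no p-value is given, and a difference between sections cannot be told apart from a difference between mice or between the places where the hearts were cut.

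TGF-beta is secreted bound to its propeptide and, through latent TGF-beta binding proteins, is stored in the extracellular matrix until integrins, proteases or thrombospondin release it. The active ligand joins type II and type I receptor kinases, which phosphorylate SMAD proteins that enter the nucleus and switch on matrix, contractile and feedback genes. In the injured heart the pathway is known for restraining inflammation and for turning fibroblasts into matrix-producing myofibroblasts, and Col1a1, which encodes the main chain of type I collagen, is a usual readout of that matrix.

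The level of a gene is its unique molecular identifiers (UMIs, 1 per captured transcript) added up across a section and expressed per 1000000 UMIs captured there (CPM), with a 95% Poisson interval that covers counting error only. The kept spots numbered 2234 in sham against 2082 in I/R and 1960 in SBP. They held between 21631280 and 30238530 UMIs a section. The markers of cardiomyocytes were high throughout, with all 5 of 5 detected and a summed level of 13563 CPM in sham against 10734 in I/R and 12597 in SBP. Markers of other cells differed between the sections as well. The 4 neutrophil markers (S100a8, S100a9, Retnlg and Csf3r) summed to 27.2 CPM in sham against 236 in I/R and 115 in SBP. The 5 monocyte markers (Ccr2, Cd14, Vcan, Ly6c2 and Plac8) summed to 34.1, 104 and 52.5 CPM, with none of these markers at 0 in any section. The smooth muscle list was highest in sham (317 CPM, against 237 in I/R and 124 in SBP), as was the fibroblast list (1702, 1353 and 1530). Single markers did not all keep the order of these sums. Acta2, most of the smooth muscle sum, stood at 254, 168 and 83.0 CPM in sham, I/R and SBP, but Tagln at 34.7, 38.5 and 22.2. In the fibroblast list, Dcn stood at 283, 221 and 239 CPM, but Col1a2 at 194, 203 and 146 and Col3a1 at 280, 304 and 172. In a summed section, fewer cells of a type and less RNA per cell cannot be told apart.

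The I/R section held the highest CPM level of 9 of the 10 genes, as of 61.1% of the 12659 genes whose UMIs over the 3 sections reached 50, and Ltbp1 was highest in sham. Relative to the median gene, which was itself higher in I/R as given further on, 8 of the 10 were highest there, against 42.9% of those genes, and Smad7 was then highest in sham as well. For Ltbp1 and Smad7 the intervals of the highest and the middle section overlapped, so that the order of their levels rests on differences within counting error. The sham and SBP intervals were apart only for Inhba and Ltbp2, both higher in SBP.

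**Figure D1:**
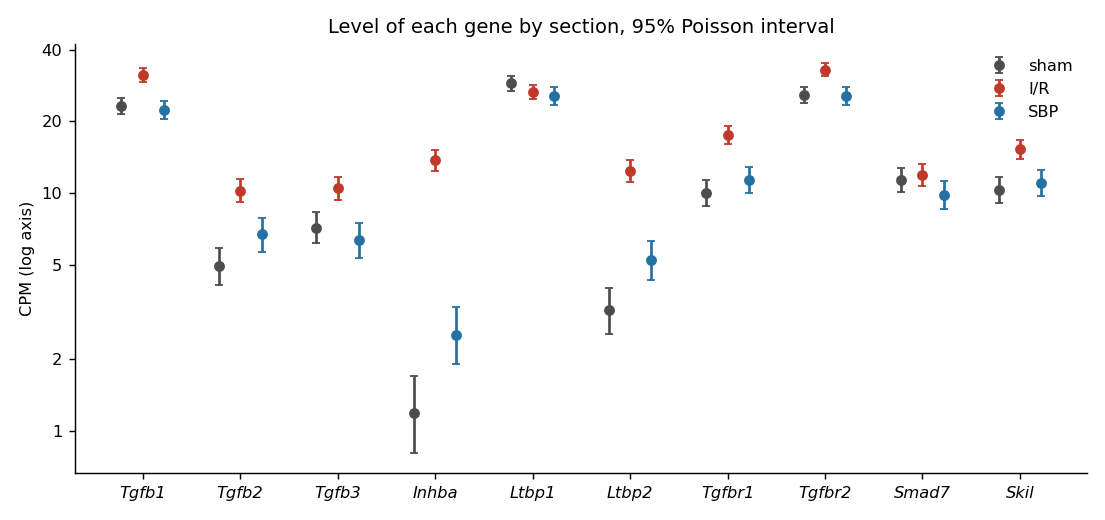
Level of each gene in CPM on a log axis in the sham (grey), I/R (red) and SBP (blue) sections, 1 section per condition, with points for the section's value and bars for the 95% Poisson interval. Inhba stands at 1.19 CPM in sham against 13.7 in I/R and 2.54 in SBP, while the 3 points of Ltbp1 lie between 25.6 and 28.9 CPM.

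Among the ligands, the largest difference was in Inhba (chr13:16011851-16031621, plus strand, GRCm38, GENCODE M21), whose product forms activin A, a dimeric ligand that signals through the same SMAD arm as TGF-beta. Inhba stood at 1.19 CPM (0.806 to 1.71, 30 UMIs) in sham against 13.7 CPM (12.4 to 15.1, 415 UMIs) in I/R and 2.54 CPM (1.92 to 3.31, 55 UMIs) in SBP. I/R was far above both other sections, SBP was above sham, and no pair of intervals overlapped. In I/R its UMIs lay in 251 spots, of which the 21 with the most (1% of the section) held 27.5%, close to the 24.0% of Ltbp2 and the 22.6% of Tgfb3. In sham and SBP, with far fewer Inhba UMIs, the same measure was 80% and 52.7%. Tgfb2 (chr1:186622792-186705989, minus strand), a ligand isoform that cardiomyocytes and other stressed cells can make, stood at 4.94 CPM (4.11 to 5.89, 124 UMIs) in sham against 10.3 CPM (9.14 to 11.5, 310 UMIs) in I/R and 6.70 CPM (5.66 to 7.89, 145 UMIs) in SBP. I/R was again apart from the rest, while the sham and SBP intervals overlapped.

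Tgfb1 (chr7:25687002-25705077, plus strand), the isoform that platelets, macrophages and many other cells release after injury, stood at 23.2 CPM (21.4 to 25.2, 584 UMIs) in sham against 31.4 CPM (29.4 to 33.4, 949 UMIs) in I/R and 22.4 CPM (20.4 to 24.5, 484 UMIs) in SBP. I/R was the high section and the other intervals lay almost on top of each other. Tgfb3 (chr12:86056745-86079041, minus strand), the third isoform, stood at 7.17 CPM (6.16 to 8.29, 180 UMIs) in sham against 10.5 CPM (9.39 to 11.7, 318 UMIs) in I/R and 6.33 CPM (5.32 to 7.49, 137 UMIs) in SBP, with the same order of sections.

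The binding proteins went different ways. Ltbp2 (chr12:84783212-84876532, minus strand), which encodes a matrix protein of the fibrillin family that, unlike its relatives, is not known to hold latent TGF-beta, stood at 3.22 CPM (2.56 to 4.01, 81 UMIs) in sham against 12.4 CPM (11.2 to 13.7, 375 UMIs) in I/R and 5.22 CPM (4.31 to 6.28, 113 UMIs) in SBP. As for Inhba, I/R was highest, SBP was in the middle, and no pair of intervals overlapped. Ltbp1 (chr17:75005568-75392512, plus strand), which ties latent TGF-beta to the matrix, stood at 28.9 CPM (26.9 to 31.1, 727 UMIs) in sham against 26.6 CPM (24.8 to 28.5, 803 UMIs) in I/R and 25.6 CPM (23.5 to 27.8, 553 UMIs) in SBP. Its 3 levels were close, and it was the only one of the 10 genes with its highest value in sham.

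For 3 of the ligand and binding protein genes, those higher by at least 1.5-fold in I/R as given further on, the bases before the transcription start are shown, since these stretches are where the pathway's own factors could bind. The sequences are from RefSeq (GRCm38.p6), written 5′ to 3′ on the gene's strand and ending where the gene begins in RefSeq or GENCODE, whichever comes first, and capitals mark CAGAC, the letters of the SMAD box, on either strand and TATAAA, the letters of the TATA box.
Inhba, chr13:16011601-16011850, plus strand: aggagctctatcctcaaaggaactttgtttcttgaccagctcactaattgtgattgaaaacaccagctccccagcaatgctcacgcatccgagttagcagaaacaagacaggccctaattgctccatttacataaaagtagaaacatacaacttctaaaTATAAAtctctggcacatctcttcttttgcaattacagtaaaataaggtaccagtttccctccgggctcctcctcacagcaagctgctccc
Tgfb2, chr1:186705990-186706239, minus strand: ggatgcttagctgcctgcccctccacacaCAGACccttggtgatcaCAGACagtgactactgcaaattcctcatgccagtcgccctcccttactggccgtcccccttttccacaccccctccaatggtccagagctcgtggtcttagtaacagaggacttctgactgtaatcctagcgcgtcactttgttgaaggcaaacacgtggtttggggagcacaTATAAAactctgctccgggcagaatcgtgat
Ltbp2, chr12:84876533-84876741, minus strand: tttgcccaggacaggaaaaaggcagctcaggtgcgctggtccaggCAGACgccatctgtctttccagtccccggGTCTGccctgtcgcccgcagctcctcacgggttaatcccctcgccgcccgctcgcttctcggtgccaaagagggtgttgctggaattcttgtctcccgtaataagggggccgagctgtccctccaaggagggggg

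In the 250 bases before the start, CAGAC was found at 2 places in Tgfb2, at 2 in Ltbp2 and at none in Inhba, while 42.2% of the 32851 RefSeq promoter windows of that length hold it on either strand. TATAAA was found 31 bases before the start in Tgfb2 and 91 bases before it in Inhba, and was not found in Ltbp2. At any place and on either strand, 12.4% of all windows hold it. The AP-1 letters TGANTCA and the cAMP response element TGACGTCA, which 6.75% and 1.55% of the windows hold, were in none of the 3. No matches overlapped each other in these 3 windows. Promoter entries were found for 7 of the 10 genes, and not for Tgfb3, Smad7 and Skil. Among the 7, Ltbp1 alone held TGACGTCA, at 1 of its 2 listed starts. CAGAC was not particular to the genes past the fold. It was also found in Tgfbr2, in Ltbp1 at each listed start and in Tgfbr1 at 1 of its 2, but not in Tgfb1.

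Of the receptors, Tgfbr1 (chr4:47353222-47414931, plus strand), the type I kinase, stood at 10.0 CPM (8.83 to 11.4, 252 UMIs) in sham against 17.5 CPM (16.0 to 19.1, 529 UMIs) in I/R and 11.4 CPM (10.0 to 12.9, 246 UMIs) in SBP. Tgfbr2 (chr9:116084293-116175360, minus strand), the type II kinase that binds the ligand first, stood at 26.0 CPM (24.0 to 28.0, 652 UMIs) in sham against 32.9 CPM (30.9 to 35.0, 996 UMIs) in I/R and 25.7 CPM (23.6 to 27.9, 555 UMIs) in SBP. Both were apart from the other sections in I/R only. The inhibitors are themselves induced by the pathway: Smad7 (chr18:75367529-75395935, plus strand) blocks the type I receptor, and Skil (chr3:31095058-31122577, plus strand) encodes SnoN, a repressor of SMAD complexes. Smad7 stood at 11.3 CPM (10.1 to 12.7, 285 UMIs) in sham against 11.9 CPM (10.7 to 13.2, 360 UMIs) in I/R and 9.85 CPM (8.57 to 11.3, 213 UMIs) in SBP, and Skil at 10.4 CPM (9.13 to 11.7, 260 UMIs) in sham against 15.3 CPM (13.9 to 16.7, 462 UMIs) in I/R and 11.05 CPM (9.69 to 12.5, 239 UMIs) in SBP. Skil was highest in I/R with no overlap, whereas the I/R and sham intervals of Smad7 overlapped.

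The difference between sections was then taken relative to the median gene, because the sections differ in what share of their UMIs the mitochondrial genes and other abundant genes take. Over 8545 genes that reached 100 UMIs in each section, the median log2 CPM ratio was 0.22 for I/R over sham, -0.14 for SBP over I/R and 0.085 for SBP over sham, and these medians were subtracted. A gene is said to be past the fold when it is at least 1.5-fold higher or lower after this step and has at least 50 UMIs in the 2 sections, which all 10 genes had. The 3 comparisons share sections, so they are not independent of each other.

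Between I/R and sham, the pair of sections set up to show the response to ischemia and reperfusion, 3 of the 10 genes were past the fold higher (Inhba, Ltbp2 and Tgfb2) and 0 lower, against 13.5% of all 12231 genes higher and 8.63% lower. The log2 difference was 3.31 (2.77 to 3.89) for Inhba, which is 9.88-fold, 1.73 (1.38 to 2.09) for Ltbp2, which is 3.31-fold, and 0.84 (0.53 to 1.15) for Tgfb2, which is 1.79-fold. The Inhba value was 3.95 with equal weight for each spot and 5.16 without the 1% of spots richest in the gene. Those spots hold 80% of its 30 UMIs in sham and 27.5% of its UMIs in I/R. So few sham UMIs remain that 5.16 cannot show how firm the difference is. For Inhba and Ltbp2 the whole interval lay beyond the fold, and for Tgfb2 it reached below it. Tgfbr1, at 0.58 (0.37 to 0.81), lay just under the limit of 0.58 and was not counted. It was past the limit in 4 of 8 alternatives, at 0.80 without centring, 0.69 with totals without mitochondrial UMIs, 0.84 with equal weight for each spot and 0.75 without the 1% of spots richest in it, which made the count 4. Skil (0.34, 0.12 to 0.57), Tgfb3 (0.34, 0.068 to 0.61) and Tgfb1 (0.22, 0.065 to 0.37) were above the median gene by less than the fold, with intervals that leave out 0. The intervals of Tgfbr2 (0.13, -0.018 to 0.27) and Smad7 (-0.15, -0.38 to 0.081) held 0, so for these genes no difference from the median gene was detectable at this depth. Ltbp1 was below the median gene, at -0.34 (-0.49 to -0.19). The median of the 10 genes was 0.34 on the log2 scale, and that of all genes tested 0.024.

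Between SBP and I/R, the pair set up to show the effect of pretreatment, 0 of the 10 genes were past the fold higher and 3 lower (Inhba, Ltbp2 and Tgfb3), against 3.63% of all 12151 genes higher and 9.11% lower. The log2 difference was -2.30 (-2.73 to -1.89) for Inhba, -1.11 (-1.43 to -0.80) for Ltbp2 and -0.60 (-0.90 to -0.30) for Tgfb3, the last just past the limit. With TMM factors Tgfb3 was at -0.57, within the limit, which left 2 genes lower. With equal weight for each spot it was just within the limit too, and Tgfbr1 was past it at -0.76. The summed smooth muscle list, with which Tgfb3 correlated most across spots, was lower in SBP as well, and its part in this value was not tested. Of the rest, Tgfbr1 (-0.49, -0.71 to -0.27), Tgfb2 (-0.48, -0.77 to -0.19), Tgfb1 (-0.35, -0.51 to -0.19), Skil (-0.33, -0.56 to -0.10) and Tgfbr2 (-0.23, -0.38 to -0.074) were below the median gene with intervals that leave out 0. The intervals of Smad7 (-0.14, -0.39 to 0.11) and Ltbp1 (0.081, -0.078 to 0.24) held 0. Ltbp1 was the only one of the 10 above the median gene, against 5587 of all 12151 genes tested. The median of the 10 genes was -0.42, and that of all genes tested -0.032.

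Between SBP and sham, 2 of the 10 genes were past the fold higher, Inhba at 1.01 (0.34 to 1.70) and Ltbp2 at 0.61 (0.19 to 1.04), and 0 lower, against 3.82% of all 11768 genes higher and 3.99% lower. Neither interval lay wholly beyond the fold. The Inhba value rests on 55 UMIs against 30. It was 2.24 without the 1% of spots richest in Inhba, but those spots hold 80% of its UMIs in sham and 52.7% in SBP. So few UMIs remain that this value cannot show how firm the difference is. The 7 genes of other organs, a background given further on, summed to 0.518 CPM in sham and 4.25 CPM in SBP, the same direction as Inhba. Tgfb2 was above the median gene by 0.36 (0.00087 to 0.71), and Smad7 (-0.29, -0.55 to -0.028) and Ltbp1 (-0.26, -0.43 to -0.10) were below it. The other 5 genes had intervals that held 0. The median of the 10 genes was -0.046, and that of all genes tested -0.0026.

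**Figure D2:**
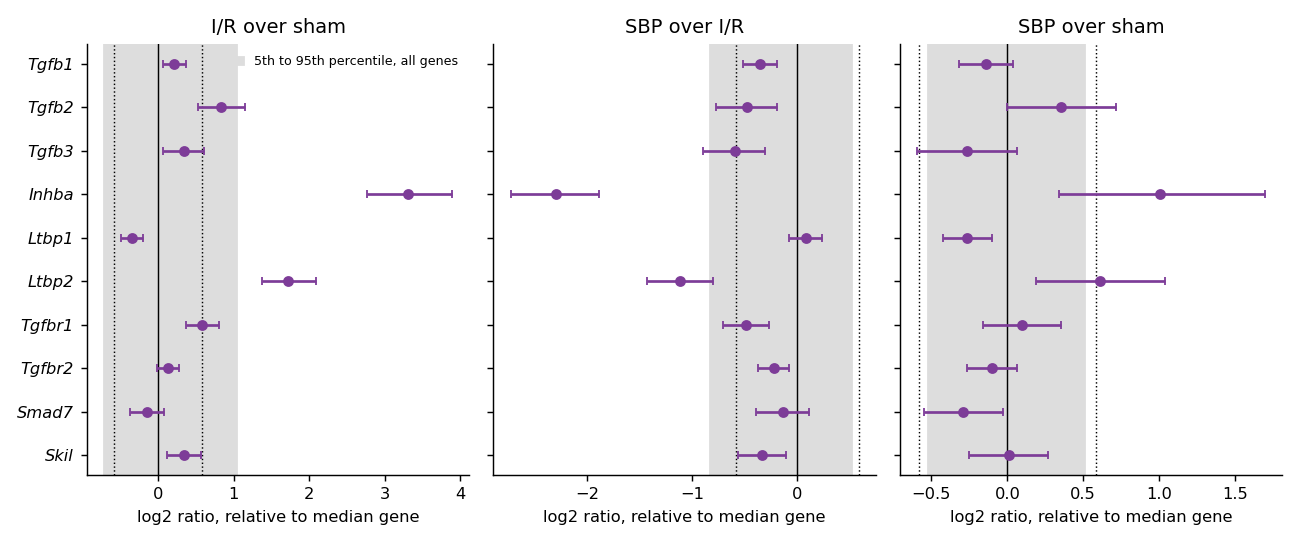
Log2 ratio of each gene relative to the median gene in the 3 comparisons, with 95% counting intervals, dotted lines at 1.5-fold and a grey band from the 5th to the 95th percentile of all genes tested. Inhba and Ltbp2 lie outside the band in all 3 comparisons, to the right for I/R over sham (3.31 and 1.73), to the left for SBP over I/R (-2.30 and -1.11) and to the right for SBP over sham (1.01 and 0.61).

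The neutrophil and monocyte lists differed between the sections in the same order as Inhba and Ltbp2. In an alternative chosen after seeing the data, only spots without a UMI of the 9 markers at equal depth were summed, 1650 spots in sham against 993 in I/R and 1214 in SBP. In those spots Inhba stood at 0.900 CPM in sham against 3.005 in I/R and 1.21 in SBP, and its log2 difference for I/R over sham was 1.76 in place of 3.31. Ltbp2 stood at 2.28, 3.005 and 3.86 CPM, so that I/R was no longer its highest section. Its log2 difference was 0.42 for I/R over sham, in place of 1.73, and 0.30 for SBP over I/R, in place of -1.11. For Tgfb2, I/R over sham was 0.33 there, and for Tgfb1 and Skil it was -0.16 and -0.093, in place of 0.22 and 0.34. The genes past the fold became 1 higher for I/R over sham and 1 lower for SBP over I/R, Inhba both times, and 1 higher for SBP over sham, Ltbp2. Inhba and Ltbp2 rest on 47 UMIs each in these spots of I/R. This left 78.5% of the thinned spots in sham against 52.8% in I/R and 69.5% in SBP, and what part the marker cells have in the results was not tested.

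At equal depth, with each spot thinned at random to 6500 UMIs, the share of spots with a UMI gave a similar order of sections. Inhba was seen in 0.761% of 2102 spots in sham (95% exact binomial interval 0.436 to 1.23%), 6.28% of 1880 in I/R (5.22 to 7.47%) and 1.03% of 1747 in SBP (0.612 to 1.62%). I/R was apart from the others, whose intervals overlapped. Before thinning the shares were 1.298%, 12.1% and 2.35%. As a background, 7 genes of other organs were read in the same spots, of which 6 were in at most 0.172% of the spots of any section, while the liver gene Alb was in 0.428% in sham against 1.70% in I/R and 1.77% in SBP. The share of Inhba in SBP was below that of Alb, and is not read as expression from this measure. Summed by CPM, the 7 genes stood at 0.518 in sham against 14.9 in I/R and 4.25 in SBP. That is the order of Inhba, whose CPM level was below this sum in I/R and in SBP. The I/R sum rests mostly on a few spots, however. At equal depth the 7 genes held 162 UMIs in I/R, with Alb in 32 spots. Only 2 of those spots, and none of the other genes' spots, held 2 or more UMIs of a gene. Inhba held 163 UMIs in 118 spots of I/R at that depth. What part such a background has in the Inhba differences was not tested. Tgfb2 was in 2.90%, 5.85% and 4.64% of spots in sham, I/R and SBP, and Ltbp2 in 2.09%, 6.01% and 2.98%. The most widespread of the genes were Ltbp1 (17.4%, 14.9% and 15.2%), Tgfbr2 (14.3%, 17.3% and 14.3%) and Tgfb1 (13.3%, 16.0% and 13.3%). For Tgfbr1 the shares were 6.18%, 10.1% and 6.47%, for Skil 6.76%, 9.31% and 6.64%, for Tgfb3 4.38%, 5.85% and 4.24%, and for Smad7 6.85%, 6.97% and 5.95%. Smad7 thus lay in close to the same share of spots in all sections.

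Across the spots of a section, the 10 genes went with Col1a1 only weakly. The correlation is Pearson's r of log2(UMIs + 1) at equal depth, over 2102 spots in sham against 1880 in I/R and 1747 in SBP. These spots share 1 library and 1 section each, so r is a description without a p-value. In I/R, r ran from 0.0862 for Tgfb2 to 0.193 for Ltbp2, and 9 of the 10 genes were over 0.1, against 18.4% of the 8071 genes with at least 200 UMIs there. In sham, r ran from -0.00309 for Ltbp1 to 0.121 for Tgfbr2, the only 1 over 0.1, against 9.57% of 6659 genes. In SBP, Ltbp2 (0.185) and Tgfbr2 (0.142) were the 2 over 0.1, against 7.54% of 6363 genes, and Smad7 was lowest at -0.00400. Tgfb2, Tgfb3, Inhba and Ltbp2 had under 200 UMIs in sham and in SBP. The shares of all genes given for these 2 sections leave out genes as sparse as those. In counts this sparse, values this low are not read as a finding. Inhba went from 0.0709 in sham to 0.181 in I/R and 0.0125 in SBP, where it rests on 18 spots with a UMI. Tgfbr2 held a similar r in all 3 sections (0.121, 0.120 and 0.142).

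**Figure D3:**
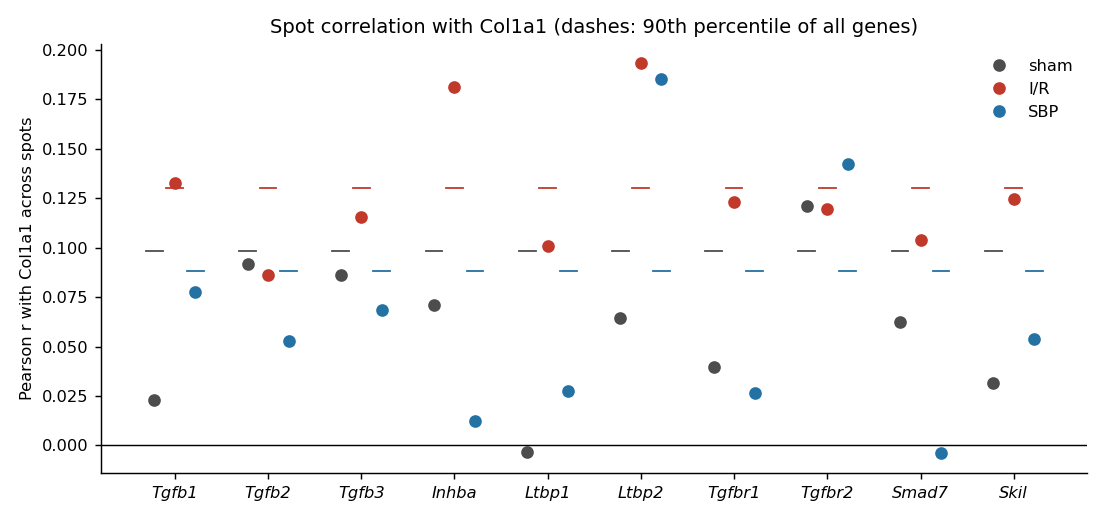
Pearson r between each gene and Col1a1 across spots thinned to equal depth, in sham (grey), I/R (red) and SBP (blue), with short dashes at the 90th percentile of all genes with at least 200 UMIs in that section. Ltbp2 (0.193) and Inhba (0.181) in I/R and Ltbp2 in SBP (0.185) are the 3 highest points.

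The relation was also read from the few spots richest in Col1a1. A spot was called Col1a1-high from the smallest thinned count that at most 10% of the section's spots reach, which gave 119 spots from 4 UMIs in sham against 175 from 3 in I/R and 95 from 3 in SBP. In I/R, Ltbp2 stood at 42.1 CPM in these spots and 7.92 in the others, a log2 ratio of 2.41 (2.07 to 2.74), the 13th highest of 8071 genes. Inhba stood at 40.7 and 8.49 CPM, a log2 ratio of 2.26 (1.92 to 2.59), the 17th highest. All 10 genes were higher in Col1a1-high spots of I/R, but so was the median gene, by 0.49. Their direction alone thus does not set them apart from most genes, whose share was not counted. Mitochondrial genes took 33.7% of UMIs in these spots against 46.2% in other spots. Tgfb3 (1.74, 1.36 to 2.12), Smad7 (1.52, 1.14 to 1.89) and Tgfb2 (1.37, 0.95 to 1.78) followed, and Tgfbr2 (0.75, 0.48 to 1.001) and Tgfb1 (0.86, 0.59 to 1.13) were closest to the median gene. Thus 36.2% of the Ltbp2 UMIs and 33.8% of the Inhba UMIs of these spots lay in 9.31% of the spots.

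Ltbp2 was as concentrated in the other sections, with log2 ratios of 2.41 (1.65 to 3.13) in sham and 2.78 (2.12 to 3.40) in SBP. The values of Tgfb3 were 1.70 (1.11 to 2.25) in sham and 1.44 (0.65 to 2.15) in SBP, close to that of I/R. For Smad7 and Ltbp1 the sections differed more. Smad7 had 0.49 (-0.15 to 1.08) in sham and 0.60 (-0.21 to 1.32) in SBP, both with intervals that hold 0. Ltbp1 had -0.0076 (-0.46 to 0.41) in sham against 0.99 (0.72 to 1.26) in I/R and 0.33 (-0.19 to 0.80) in SBP.

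Spots were also marked by Ankrd1, which encodes a stress protein of cardiomyocytes and which the paper uses to mark the infarct. How far these spots overlap the Col1a1-high ones was not counted. Sham had no ligation, so Ankrd1-high spots need not be the same kind of tissue in each section. A spot was called Ankrd1-high from 18 thinned UMIs, which at most 5% of sham spots reach, giving 103 spots in sham against 437 in I/R and 297 in SBP. These were 4.90%, 23.2% and 17.0% of the thinned spots. In I/R, Tgfb2 stood at 19.7 CPM in Ankrd1-high and 6.60 CPM in other spots, a log2 ratio of 1.58 (1.24 to 1.92), the 15th highest of 8071 genes. Tgfb3 stood at 18.6 and 7.38 CPM, a log2 ratio of 1.33 (0.996 to 1.67), the 33rd highest. The median gene was higher by 0.28. So 52.0% of the Tgfb2 UMIs lay in 23.2% of the spots. Tgfb1 (0.22, 0.0015 to 0.44), Tgfbr1 (0.33, 0.039 to 0.61) and Ltbp1 (0.021, -0.22 to 0.25) were the lowest. The intervals of Tgfb1 and Tgfbr1 held the median gene's value, and that of Ltbp1 lay below it. In SBP the ratio of Tgfb2 was 1.48 (0.96 to 1.996), and in sham, on 13 UMIs in Ankrd1-high spots, 0.65 (-0.31 to 1.48). Ltbp2 had 1.70 (1.10 to 2.28) in SBP and 1.68 (0.79 to 2.48) in sham, both above its 0.70 (0.37 to 1.03) in I/R, although the sham and I/R intervals overlapped. Tgfb3 had 0.44 (-0.19 to 1.04) in SBP and -0.063 (-1.05 to 0.78) in sham. Ltbp1 was lower in Ankrd1-high spots of SBP, at -0.42 (-0.79 to -0.069).

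**Figure D4:**
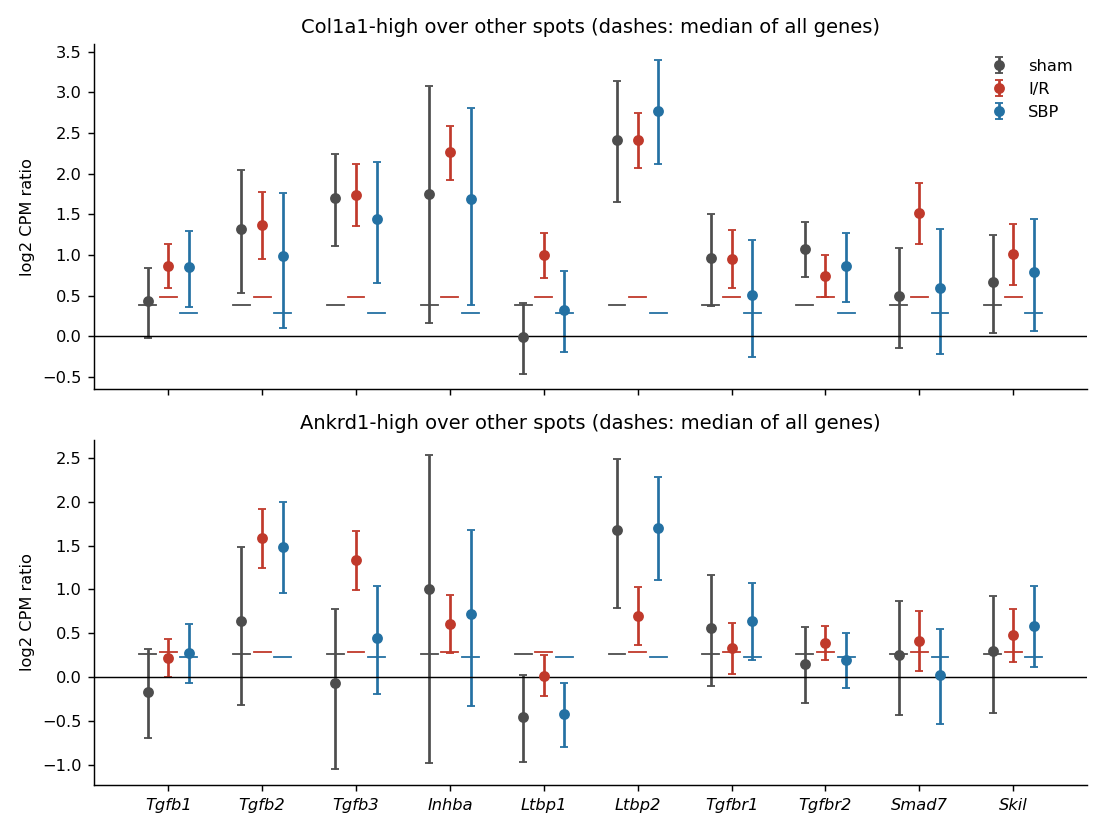
Log2 CPM ratio of each gene between Col1a1-high and other spots (top) and between Ankrd1-high and other spots (bottom) in each section, with 95% counting intervals and short dashes at the median of all genes with at least 200 UMIs in that section. In I/R, Ltbp2 (2.41) and Inhba (2.26) are highest in the top plot, and Tgfb2 (1.58) and Tgfb3 (1.33) in the bottom plot.

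The section differences of these genes were then read inside and outside the Ankrd1-high spots. In each kind of spot the median ratio of the whole sections was subtracted, not that of the spots themselves. For Inhba, I/R over sham was 2.54 (1.15 to 4.44) in Ankrd1-high spots and 2.93 (2.34 to 3.58) in the others, and SBP over I/R was -2.05 (-3.00 to -1.22) and -2.16 (-2.72 to -1.64), so the difference stood in both kinds of spot, although the Ankrd1-high spots of sham held 4 Inhba UMIs. For Ltbp2, SBP over I/R was -0.30 (-0.83 to 0.21) in Ankrd1-high spots and -1.298 (-1.74 to -0.88) in the others. For Tgfb3 the larger value was in Ankrd1-high spots, at -1.05 (-1.66 to -0.49) against -0.17 (-0.54 to 0.20). The intervals of Tgfb3 overlapped, and those of Ltbp2 were apart by a small margin. Centring on the median gene of each kind of spot, which could change that margin, was not tried. For Tgfb2, I/R over sham was 1.19 (0.37 to 2.13) in Ankrd1-high spots and 0.25 (-0.12 to 0.63) in the others, with intervals that overlapped and 13 UMIs in the Ankrd1-high spots of sham.

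The genes most like each of the 10 in I/R, by r across the 1880 spots among genes with at least 500 UMIs, differed between the members. Each named gene was picked as 1 of the 3 highest of 4615 or 4616 values. The r of each named pair was lower in sham and in SBP, so the values are a description of I/R only. Inhba went with the TGF-beta activator Thbs1 (0.420) and with the matrix gene Tnc (0.360), both above the values named for the other 9 genes. Tgfb2 went with Flnc (0.223), Nppb (0.221) and Hspb1 (0.221), which stressed cardiomyocytes express, but its r with the summed cardiomyocyte list was -0.215. With Flnc, Nppb and Hspb1 its r was 0.0232, 0.0125 and 0.000667 in sham, and 0.0825, 0.116 and 0.0820 in SBP. Tgfb3 went with the smooth muscle genes Acta2 (0.241), Tagln (0.237) and Myl9 (0.233), and the same 3 led for Ltbp1 (0.177, 0.171 and 0.181). For Tgfb3 the r with Tagln was 0.228 in sham and 0.167 in SBP. Skil went with the neutrophil genes S100a8 (0.268) and S100a9 (0.267) and with Actb (0.258). Tgfbr1 went with Spp1 (0.246), Coro1a (0.240) and Fn1 (0.239), of which Coro1a is a leukocyte gene, and Tgfb1 with Actb (0.322), Fxyd5 (0.305) and Spp1 (0.305). Ltbp2 went with Timp1 (0.325), Rplp1 (0.286) and Cfl1 (0.282), and Tgfbr2 with Rplp1 (0.202), Actb (0.201) and Rps15a (0.199). For Smad7 the highest value was 0.132, with Ccn2, against -0.0085 in sham and -0.016 in SBP.

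Summed marker lists gave the same kind of description. In I/R, Inhba had r = 0.340 with the neutrophil list, 0.290 with the monocyte list and -0.401 with the cardiomyocyte list. Tgfb1 was similar, with 0.293 for neutrophils, 0.237 for monocytes, 0.225 for macrophages and -0.341 for cardiomyocytes. Ltbp2 (0.258), Skil (0.276) and Tgfbr1 (0.236) also went with the neutrophil list, and Smad7 did so least (0.0686). How many of all genes reach such values with the neutrophil, monocyte and macrophage lists was not counted. These values therefore do not set the genes apart from other genes of the section. Tgfb3 had its highest r with the smooth muscle list (0.247, 0.149 in sham and 0.153 in SBP). With the fibroblast list no gene was above 0.108 in I/R, the value of Tgfbr2, and Tgfb1 (-0.0293) and Tgfb2 (-0.0210) were slightly below 0. All 10 genes had a negative r with the cardiomyocyte list in I/R, from -0.401 to -0.0664, as did 81.8% of the 8067 genes that reached 200 UMIs there. The median r was -0.241 for the 10 genes and -0.109 for all of these. In SBP, all r with the neutrophil list were at most 0.120. Among the 10 genes themselves, the highest of the 45 pairs in I/R was Inhba with Ltbp2, at 0.191.

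**Figure D5:**
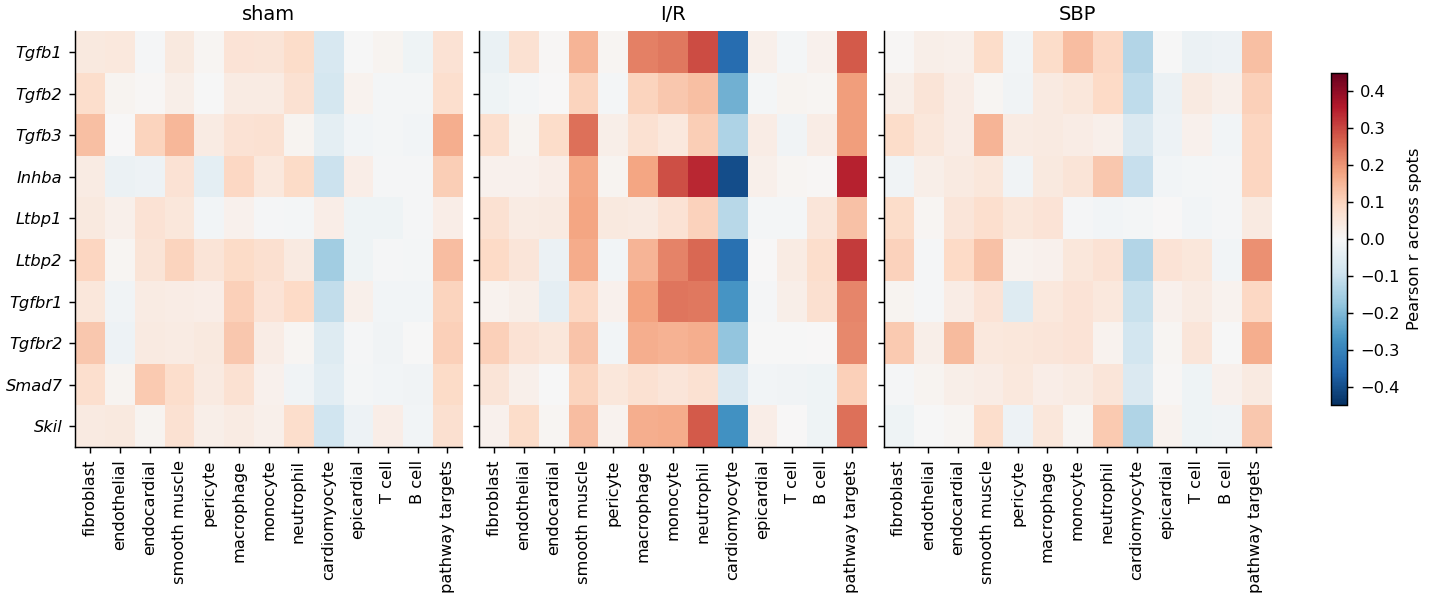
Pearson r across spots at equal depth between each gene (rows) and the summed UMIs of each marker list or of 14 pathway targets (columns), in sham, I/R and SBP, with red for positive and blue for negative r on 1 scale. The I/R panel has the deepest colours, from -0.401 for Inhba with the cardiomyocyte list to 0.345 for Inhba with the targets.

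Genes of the wider TGF-beta family were read from a list of 58 genes in 6 classes. It is wider than the TGF-beta arm described above. It also holds Bmp ligand genes, the receptors Bmpr1a and Bmpr2, Smad1, Smad5 and Smad9, and Id1, Id2 and Id3 among the targets. Its counts are thus not counts of the TGF-beta arm alone. Between I/R and sham, 14 of the 51 with enough UMIs were past the fold higher and 1 lower, beside the 13.5% of all genes higher and 8.63% lower. The median of the 51 was 0.18 on the log2 scale. The counts of single classes are small and are to be read beside the same shares. Among other ligands 2 of 6 were higher, Gdf15 (2.56), a stress cytokine of the family, and Inhbb (0.70), another activin subunit. The Inhbb value rests on 50 UMIs against 22, and its interval (-0.051 to 1.49) held 0. Of 8 storage and activation genes 3 were higher, Thbs1 (2.16) and the anchors of latent TGF-beta Nrros (0.95) and Lrrc32 (0.81). None of 8 receptors and none of 5 SMAD genes were past the fold in either direction, as for Tgfbr1 and Tgfbr2. Of 10 inhibitors 3 were higher: Fstl3 (2.28), which binds and blocks activins, Tgif1 (0.80) and Pmepa1 (0.62). The intervals of Tgif1 (0.39 to 1.23) and Pmepa1 (0.50 to 0.74) reached within the fold. Of 14 targets 6 were higher, among them Ccn2 (2.27), Tgfbi (2.21) and Fn1 (1.97), and 1 was lower, Acta2 (-0.82), a smooth muscle gene. Col1a1 itself was at -0.35, a difference of less than the fold.

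Between SBP and I/R, 2 of 51 genes of this list were past the fold higher and 17 lower, beside 3.63% and 9.11% of all genes, with a median of -0.39. The 2 higher were Gdf11 (0.78, 0.21 to 1.36) and Bmp4 (0.62, 0.17 to 1.06), ligands of the wider family and not TGF-beta isoforms. Gdf15 (-1.70, -2.34 to -1.11) and Inhbb (-1.12, -2.06 to -0.26) were lower. The intervals of Gdf11, Bmp4 and Inhbb reached within the fold. Gdf11 rests on 56 UMIs in SBP against 50 in I/R, Bmp4 on 87 in each, and Inhbb on 15 against 50. Of the targets 10 of 14 were lower and 0 higher, among them Ccn2 (-1.76), Postn (-1.33) and Fn1 (-1.15), beside the same 9.11%. The smooth muscle genes Acta2 (-0.88) and Tagln (-0.66) were 2 of the 10. The marker lists of smooth muscle (237 CPM in I/R and 124 in SBP), neutrophils (236 and 115) and monocytes (104 and 52.5) were lower in SBP too, and their part in these counts was not tested. Acta2 and Tagln are in the smooth muscle list as well, with 5066 and 1165 of its 7175 UMIs in I/R. That list is thus not a reading separate from these 2 targets. Thbs1 (-1.65), Nrros (-0.65) and Itgb6 (-0.80) were the 3 storage and activation genes that were lower, and Bambi (-0.83) and Tgif1 (-0.82) the 2 inhibitors. Of these, the intervals of Nrros (-0.85 to -0.46), Itgb6 (-1.14 to -0.47), Bambi (-1.11 to -0.57) and Tgif1 (-1.26 to -0.40) reached within the fold. So did that of the target Tagln (-0.82 to -0.51). The median of the 14 targets was -0.79. Each of them was below the median gene, while 5587 of all 12151 genes tested were above it. Between SBP and sham, 6 of 48 genes were higher and 6 lower, beside 3.82% and 3.99% of all genes, with Fstl3 (1.83), Timp1 (1.38) and Tgfbi (1.26) the largest differences upward and Acta2 (-1.70) the largest downward. Col1a1 was at -0.38 between SBP and I/R and at -0.73 between SBP and sham.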

How the data were processed

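Visium libraries of 1 sham, 1 I/R and 1 SBP heart section were analysed, grouped by their labels. The values the authors deposited are raw UMI counts, 1 for each gene and tissue-covered spot, from Space Ranger 1.3.0 on the mm10 build per the submitters' processing notes. The methods text gives a different version and a human genome, but the identifiers are mouse ones. Of the 32285 identifiers, 32158 were found in GENCODE M21 (GRCm38), among them all 10 members.

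Spots with under 200 detected genes (3, 1 and 2 in the sham, I/R and SBP sections) were left out. The total counts of the sham, I/R and SBP sections were 25118258, 30238530 and 21631280 UMIs, with medians per spot of 10645, 14672 and 10653 and mitochondrial shares of 48.6%, 44.3% and 46.3%. Barcodes shared between sections (1207 to 1568 a pair) are slide positions, and 0 of them held identical counts. Intervals are 95%, exact Poisson for a level, exact conditional binomial for a ratio and Clopper-Pearson for a share, and cover counting error only. The share and correlation steps used spots thinned by a hypergeometric draw (seed 7) to 6500 UMIs, close to the depth that 10% of all spots fall short of. This left out 132, 202 and 213 spots of the sham, I/R and SBP sections. Levels in Col1a1-high and Ankrd1-high spots used the unthinned UMIs of the spots that could be thinned. No spot was given a cell type, and no doublet caller was run. Spot positions were not used here.

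The text names each of the 10 members, the 58 genes of the pathway list by counts with examples, and for each member the 3 genes most correlated with it in I/R, apart from 1 gene that is not reported here. The members, the gene lists and the comparisons were chosen with earlier results of these data known. Ratio, interval and thinning steps were tested on simulated data. The alternatives tried were CPM without centring, totals without mitochondrial UMIs, TMM factors by the published formula, equal weight for each spot, other spot filters, leaving out the 1% of spots richest in a gene, a fold of 2, at least 200 UMIs, other thinning depths, other correlation measures and other limits for high spots. The software was Python 3.11.15, scipy 1.17.1, numpy 2.4.6, matplotlib 3.10.9 and pandas 2.3.3.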

Additional observations from a re-analysis of the deposited data

How the results depend on the processing

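No paired analysis was possible because there is a single section for every condition, and no replicate was there to leave out. The log2 differences of the 10 genes between sections were computed under 8 alternatives. With TMM factors, totals without mitochondrial UMIs, no filter on spots, or spots with at least 1000 UMIs, each of the 30 values stayed within its counting interval, though TMM factors put Tgfb3 for SBP over I/R within the fold at -0.57. Without centring on the median gene 27 of 30 did so, with equal weight for each spot 25, without the 1% of spots richest in the gene 26, and in spots without a neutrophil or monocyte UMI, an alternative chosen after seeing the data, 16. In 21 of the 30 the sign was the same under all 8. In the spots without those markers Ltbp2 for SBP over I/R turned from -1.11 to 0.30, and the genes past the fold became 1 higher for I/R over sham, 1 lower for SBP over I/R and 1 higher for SBP over sham. Without centring, 5 genes in place of 3 were past the fold lower for SBP over I/R. The 2 genes higher for SBP over sham became 1 without the 1% of spots richest in the gene, 1 at a fold of 2, and 0 when at least 200 UMIs were asked for, which neither Inhba nor Ltbp2 reach in those sections. Genes over r = 0.1 with Col1a1 in sham, 1 at first, became 4 with unthinned UMIs, 2 with the sum of Col1a1, Col1a2 and Col3a1, and 0 without the 1% of spots with the most Col1a1. In I/R the 9 became 5 with Spearman's rho and 5 without that 1%. The cause was not tested for these. The shares of spots with a UMI rise with the thinning depth by construction. Of the 60 ratios between high and other spots, 58 stayed within their intervals at the wider limits, but the wider Col1a1 limit left the same 175 spots in I/R.

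With 1 section per condition, every interval covers counting error only, and the spread between mice is unknown. The fewest counts are those of Inhba, 30 UMIs in sham and 55 in SBP, and of Ltbp2, 81 in sham. Correlations across spots rest on few UMIs per spot, and Inhba was seen in 18 thinned spots in SBP. A spot holds several cells, so no value is that of a cell type.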
